A study of Mus musculus with 32 samples.

Results

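The response of cultured mouse urogenital sinus (UGS) to testosterone was measured in 8 of the 32 libraries of the series. The members were taken by their labels: 4 libraries of UGS cultured with testosterone (libraries B, C, G and H) and 4 of UGS cultured without hormone (libraries A, C, D and H). All were total RNA from C57/BL6 embryos, dissected at E16.5, late in mouse gestation. Testosterone UGS was kept in culture for 6 days per the labels. The culture time of hormone-free UGS and the testosterone dose are not given in the sources used here. An effect of the hormone and one of culture time therefore cannot be told apart from the labels. The other 24 libraries were adult tissue of male C57/BL6 mice, namely the anterior lobe (AP) and dorsal lateral lobe (DLP) of the prostate and the prostatic urethra, untreated or carrying implants of testosterone and oestrogen. Of those, only the 12 untreated libraries are used here, as a reference for levels. The labels do not say whether a library is a single UGS, a pool or a repeat from the same culture, so the tests see the spread among libraries, which may be technical.

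The UGS is the embryonic tube below the bladder from which the prostate grows. Androgen, acting first on the mesenchyme, makes the epithelium send out solid buds that later branch into prostatic ducts. Testosterone is converted in the mesenchyme to the stronger androgen dihydrotestosterone by the steroid 5-alpha reductase Srd5a2. Secreted signals of the FGF, Wnt, Hedgehog, BMP and IGF families carry information between mesenchyme and epithelium. Without androgen the UGS forms the urethra and, in females, part of the vagina.

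The libraries held the cells that UGS is made of. Marker genes of basal epithelium (the keratin Krt5, 373 to 802 TPM), luminal epithelium (the keratin Krt8, 314 to 537 TPM) and urothelium (the uroplakin Upk1b, 116 to 213 TPM) were abundant in all 8. Mesenchymal Vim lay between 909.9 and 1231 TPM, and the posterior patterning gene Hoxd13 between 107 and 145 TPM. TPM is a level per length of transcript, scaled to the same sum in each library, so levels of different genes can be set side by side but the sequencing depth is unknown.

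The label that the embryos were male went against the data in all 8 UGS libraries. Xist, the RNA that silences an X chromosome in XX cells, was at 568, 280, 792 and 203 TPM in testosterone libraries B, C, G and H and at 229, 172, 212 and 157 TPM in hormone-free libraries A, C, D and H. The 24 adult libraries held 0.01 to 0.85 TPM of Xist. Of the Y-linked genes, Ddx3y did not exceed 0.08 TPM in UGS against 28.3 to 63.3 TPM in the adults, and Eif2s3y did not exceed 0.09 against 31.0 to 126 TPM. Kdm5d did not exceed 0.03 TPM and Uty lay between 0.04 and 0.24 TPM in UGS, against at least 9.08 and 10.98 TPM in the adults. Both arms of the comparison showed this pattern, that of XX tissue, so the libraries are called here testosterone and hormone-free UGS without a sex.

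**Figure D1:**
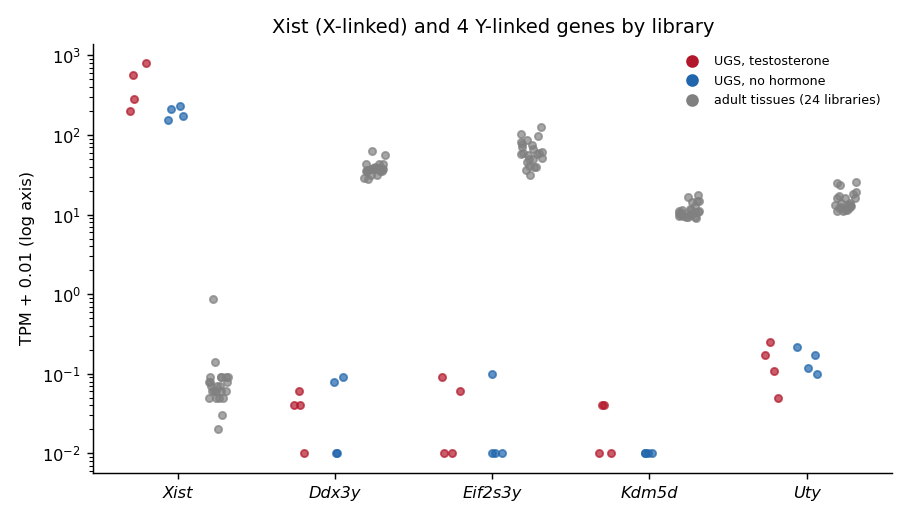
Level of Xist and of 4 Y-linked genes in each library (TPM + 0.01, log axis). Points are libraries: 4 UGS with testosterone, 4 UGS without hormone and 24 adult tissues; Xist is at 157 TPM or more in every UGS library and at 0.85 TPM or less in every adult one, and the Y-linked genes are the reverse.

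Some libraries stood apart in ways the groups do not explain. Values moved with transcript length. The rank correlation over genes between transcript length and a library's deviation from the gene mean was 0.695, 0.256, 0.668 and -0.495 in testosterone libraries B, C, G and H and 0.029, -0.603, -0.39 and -0.692 in hormone-free libraries A, C, D and H. Long transcripts were therefore high in testosterone B and G and low in hormone-free C and H, and testosterone H leaned with the hormone-free libraries. The median log2 fold change of all genes was 0.17, and it ran from -0.11 in the 2653 genes with the shortest transcripts to 0.46 in the 2652 with the longest. Counts over all genes and many named genes are given as deposited and after this trend was removed from each library with a loess curve. The median of all genes was -0.00093 with the trend removed. Other values and counts are as deposited only. Among those, some rises of long transcripts were smaller with the trend removed, such as Irs4 (log2 fold change 2.27 against 1.81) and Abcc4 (0.96 against 0.55).

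**Figure D2:**
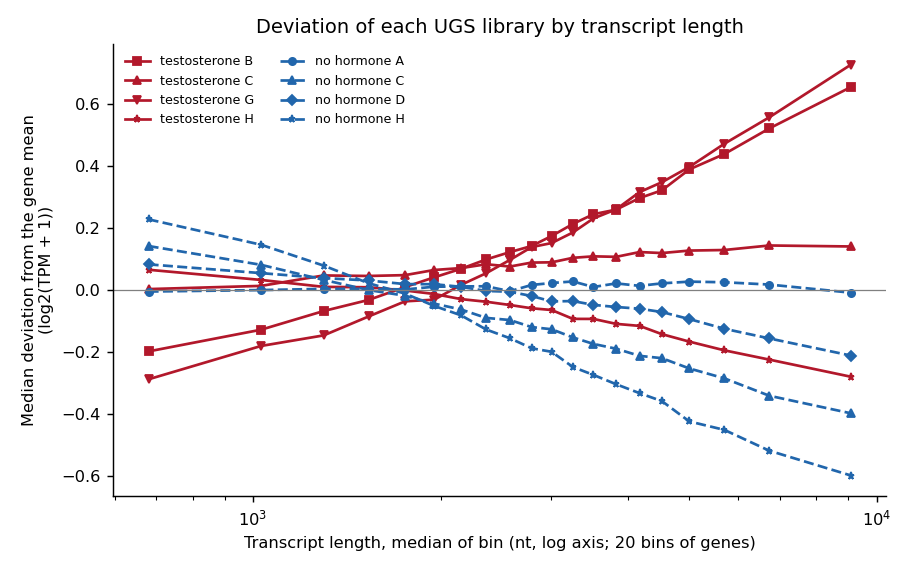
Median deviation from the gene mean on the log2(TPM + 1) scale against transcript length (nt, log axis) in 20 bins of genes, with a line per library. Testosterone libraries B and G climb with length, hormone-free C and H and testosterone H descend, and hormone-free A stays near 0.

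Testosterone library C also held transcripts of gut epithelium. Of 12 such genes, a list written after the values were seen, 10 were highest there, and the list summed to 1181 TPM in that library against 88.6 to 148 TPM in the other 7. The goblet cell genes Tff3 (203 TPM) and Spink4 (121 TPM) were below 1 TPM in all others. In the same library Hoxb13, a posterior Hox gene of prostate and hindgut, was at 35.9 TPM against 6.33 to 12.4 TPM, and Ceacam1, an epithelial adhesion gene, at 57.0 TPM against 15.0 to 21.2 TPM in the other testosterone libraries. The part of this tissue in other results was not tested, and counts without this library stand beside the first result. Other content was uneven too. The skeletal muscle list summed to 2611 TPM in hormone-free A and 558 TPM in hormone-free D, and to 807 to 1683 TPM with testosterone. The Schwann cell and neuron list summed to 3317 TPM in hormone-free D against 2047 to 2849 TPM in the other 7. The part of these tissues in other results was not tested.

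More genes were called higher than lower in testosterone UGS beside hormone-free UGS. Of 13304 genes that reached 1 TPM in 4 or more UGS libraries, 190 rose (1.43%) and 40 fell (0.301%) by limma on log2(TPM + 1) at an adjusted p under 0.05 (Benjamini-Hochberg over all genes), 1.73% in either direction. At least 2-fold changes were seen for 99 and 15 of them. In all 230 the 4 values of each arm did not overlap, which held for 10.8% of all genes tested (8.19% higher and 2.64% lower with testosterone; 11.6%, 6.1% and 5.5% with the trend removed). With the length trend removed, 229 genes rose (1.73%) and 151 fell (1.14%) of 13257 (2.87% in either direction). Of the genes called as deposited, 155 that rose and 32 that fell were called again. The split into rises and falls thus moved with the scaling: rises made up 83% of calls at a pseudocount of 0.1, 64.6% after median-of-ratios rescaling, 55.5% after quantile normalization and 60.3% with the trend removed.

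The counts also hung on single libraries. Without testosterone library H, the sole testosterone library whose long transcripts were low, 4107 genes rose and 451 fell. Without testosterone B, C or G the total fell to 106, 134 or 138, and without hormone-free C or H to 96 or 133, from 230. A fit without testosterone B and G and hormone-free H, chosen after seeing the data, called 47 rises and 12 falls, and all 59 were among the 230.

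**Figure D3:**
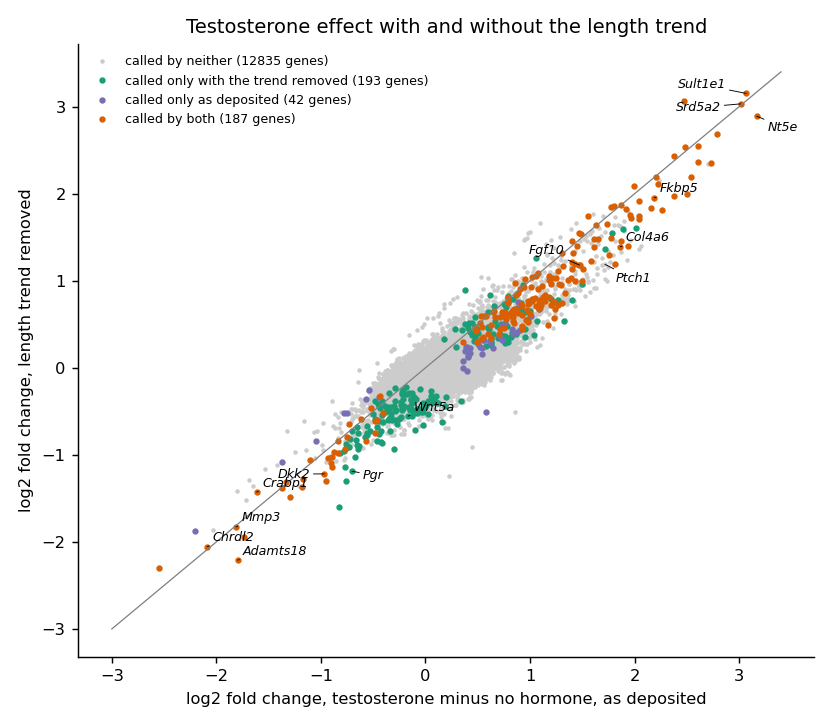
Log2 fold change of each gene, testosterone minus hormone-free UGS, as deposited (horizontal) and with the length trend removed (vertical); the line marks equality and colours mark which fit called the gene. Points lie below the line on average, since the median of all genes moved from 0.17 to -0.00093, while Nt5e, Srd5a2, Sult1e1 and Fkbp5 stay among the largest rises and Adamts18 and Chrdl2 among the largest falls.

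Among called genes without overlap that reached a mean of 10 TPM in the higher arm, the largest rises were Nt5e, Srd5a2, Adamdec1, Mkx, Aldh1a1, Fam189a1, Col24a1, Epha3, Irs4, Gdpd2, Pdgfd and Fkbp5, with log2 fold changes from 3.17 to 2.19. Nt5e, the cell surface ecto-5'-nucleotidase CD73 that makes adenosine from AMP and marks many mesenchymal cells, stood at 50.2, 43.1, 50.3 and 29.9 TPM in testosterone libraries B, C, G and H and at 4.16, 4.41, 3.50 and 3.36 TPM in hormone-free libraries A, C, D and H, the order kept below. Every testosterone library was far above every hormone-free one, and the log2 fold change was 3.17 ± 0.18 (SE; adjusted p = 4.97e-05), or 2.89 ± 0.11 with the trend removed.

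Srd5a2, which makes dihydrotestosterone, stood at 75.0, 58.4, 80.9 and 39.3 TPM with testosterone and 8.30, 8.01, 7.11 and 4.15 TPM without. The lowest testosterone library, H, was still several times the highest hormone-free one, and the log2 fold change was 3.02 ± 0.25 (adjusted p = 4.12e-04), or 3.03 ± 0.26 with the trend removed. Fkbp5, a cochaperone of steroid receptors and a textbook androgen-induced gene, stood at 87.2, 77.5, 86.5 and 64.2 TPM against 19.4, 12.6, 17.6 and 16.8 TPM. The arms were widely apart, with a log2 fold change of 2.19 ± 0.15 (adjusted p = 1.57e-04), or 1.95 ± 0.10 with the trend removed.

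Mkx, the homeobox gene Mohawk of tendon and other mesenchyme, stood at 48.3, 38.7, 45.7 and 34.5 TPM against 4.80, 6.20, 6.99 and 6.00 TPM. Aldh1a1, a retinaldehyde dehydrogenase that makes retinoic acid, stood at 52.5, 67.3, 37.1 and 32.8 TPM against 7.12, 6.22, 6.67 and 6.71 TPM. The 4 hormone-free values of Aldh1a1 lay close together and the testosterone values averaged 47.4 ± 15.7 TPM (mean ± SD, n = 4). Gdpd2, a glycerophosphodiester phosphodiesterase, rose from 7.63 ± 0.320 to 39.6 ± 5.51 TPM (log2 fold change 2.22 ± 0.12).

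The other rises were a secreted metalloprotease-like protein of leukocytes and stroma (Adamdec1, from 1.28 ± 0.428 to 14.8 ± 3.16 TPM), a fibrillar collagen (Col24a1, from 6.88 ± 1.26 to 45.4 ± 17.4 TPM), an insulin receptor substrate (Irs4, from 1.99 ± 0.204 to 13.5 ± 2.69 TPM) and a poorly described membrane protein gene (Fam189a1, from 1.31 ± 0.252 to 12.7 ± 3.01 TPM). Epha3, an ephrin receptor tyrosine kinase, stood at 91.8, 49.4, 79.9 and 19.8 TPM against 15.4, 7.90, 10.96 and 5.11 TPM. Its testosterone library H was not far above hormone-free A. Pdgfd, a platelet-derived growth factor ligand for mesenchymal receptors, stood at 66.0, 45.3, 61.2 and 26.8 TPM against 16.2, 6.31, 12.4 and 6.10 TPM. The call of Epha3 ended without testosterone library B, C or G or hormone-free library C, D or H, and that of Pdgfd without testosterone library B or hormone-free library C. Of the 12 rises, 9 kept their call in all 21 alternatives, and Aldh1a1 lost it in the fit with both the trend removed and a replicate block.

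The largest falls were BC100530, BC117090, Adamts18, Crabp1, Dpt, S100a4, Pnliprp1, Dsc3, Vstm2b, Lgals7, Dkk2 and Cntnap4. Crabp1, which binds retinoic acid in the cytoplasm, stood at 132, 164, 100.4 and 141 TPM with testosterone and 362, 482, 401 and 393 TPM without. No testosterone library came near a hormone-free one, and the log2 fold change was -1.61 ± 0.14 (adjusted p = 6.10e-04), or -1.43 ± 0.11 with the trend removed. Dkk2, a secreted modulator of Wnt receptors, stood at 60.7, 51.9, 73.3 and 48.8 TPM against 123, 118, 120.0 and 97.8 TPM. The arms did not overlap, with a log2 fold change of -0.97 ± 0.13 as deposited (adjusted p = 0.00636) and -1.22 ± 0.078 with the trend removed.

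Adamts18, a secreted metalloprotease, stood at 4.13, 2.52, 3.50 and 1.66 TPM against 18.8, 11.9, 11.9 and 8.53 TPM. Its fall was larger with the trend removed (-2.21 ± 0.15) than as deposited (-1.80 ± 0.26). BC100530, a stefin-like protease inhibitor gene with close relatives that can share its reads, stood at 11.3, 22.1, 42.3 and 20.6 TPM against 208, 93.7, 102 and 150.3 TPM. Among all falls with at least 10 TPM it had the largest change (-2.54 ± 0.37, adjusted p = 0.00823).

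The pancreatic lipase relative Pnliprp1 fell from 14.3 ± 2.75 to 5.01 ± 0.595 TPM, the matrix protein gene Dpt from 26.6 ± 5.21 to 9.88 ± 3.60 TPM, the desmosomal cadherin Dsc3 from 16.0 ± 3.51 to 6.61 ± 2.11 TPM and the contactin-associated protein Cntnap4 from 15.8 ± 2.81 to 7.78 ± 1.85 TPM. Vstm2b, a membrane protein gene, fell from 21.9 ± 3.89 to 9.56 ± 0.963 TPM. The calls of BC117090, S100a4 (a calcium-binding protein of motile and stromal cells) and Lgals7 (a galectin of stratified epithelium) ended with the trend removed, at adjusted p = 0.0872, 0.0568 and 0.0526. Of the 12 falls, Adamts18, Crabp1 and Dkk2 kept their call in all 21 alternatives. Leaving out hormone-free library C ended the calls of Dpt, Dsc3, Cntnap4, BC117090 and S100a4. Leaving out testosterone B or C ended those of Dsc3, Cntnap4, Lgals7 and BC117090, testosterone C also that of S100a4, and testosterone G those of Dsc3, Cntnap4, Lgals7 and S100a4. Hormone-free A, D or H were needed for BC117090 and S100a4, A and D for Dsc3 and Cntnap4, and H for Lgals7.

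**Figure D4:**
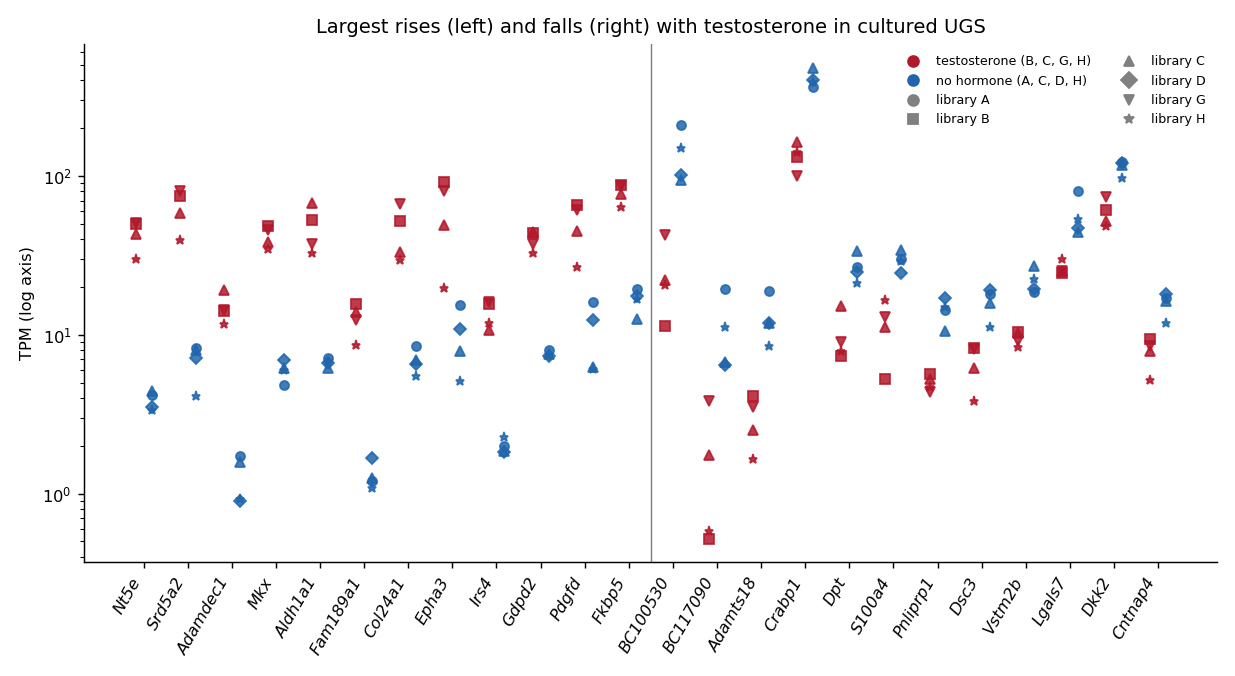
TPM (log axis) of the 12 largest rises and 12 largest falls, with a point per library (testosterone B, C, G, H; hormone-free A, C, D, H; shapes mark the letter). For each gene the 4 testosterone points lie wholly above (left part) or wholly below (right part) the 4 hormone-free points; these genes were picked for that.

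The promoters of genes that the comparison turned on are shown because they are the stretches where a steroid receptor element next to a gene's start would be seen. Each is the 250 bases before the RefSeq gene start in GRCm38.p6, 5' to 3' on the gene's strand, and capitals mark the receptor hexamer AGAACA or a GC box GGGCGG on either strand. Nt5e is at chr9:88327359-88327608 on the plus strand, Srd5a2 at chr17:74047861-74048110 (minus), Fkbp5 at chr17:28486150-28486399 (minus) and Dkk2, which fell, at chr3:132085042-132085291 (plus).
Nt5e: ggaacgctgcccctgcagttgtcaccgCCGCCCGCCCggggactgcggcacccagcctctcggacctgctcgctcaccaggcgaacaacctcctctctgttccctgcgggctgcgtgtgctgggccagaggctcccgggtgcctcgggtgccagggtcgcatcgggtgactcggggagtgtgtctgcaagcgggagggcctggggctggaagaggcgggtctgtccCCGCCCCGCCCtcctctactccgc
Srd5a2: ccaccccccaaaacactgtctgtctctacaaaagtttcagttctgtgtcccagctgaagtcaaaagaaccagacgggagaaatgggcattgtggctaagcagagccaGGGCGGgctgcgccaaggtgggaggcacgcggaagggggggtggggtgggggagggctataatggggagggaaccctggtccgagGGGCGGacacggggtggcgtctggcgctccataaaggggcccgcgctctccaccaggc
Fkbp5: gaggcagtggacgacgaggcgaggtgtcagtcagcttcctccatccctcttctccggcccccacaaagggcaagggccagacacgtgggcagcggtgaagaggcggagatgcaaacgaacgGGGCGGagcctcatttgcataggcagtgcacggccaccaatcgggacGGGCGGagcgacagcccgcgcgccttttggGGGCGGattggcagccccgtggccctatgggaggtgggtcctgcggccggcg
Dkk2: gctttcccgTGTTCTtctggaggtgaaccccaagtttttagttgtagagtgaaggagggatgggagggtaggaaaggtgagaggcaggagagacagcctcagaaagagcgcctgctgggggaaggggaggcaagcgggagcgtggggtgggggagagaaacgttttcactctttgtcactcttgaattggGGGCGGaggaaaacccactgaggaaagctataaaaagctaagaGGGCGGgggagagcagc

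Nt5e, Srd5a2 and Fkbp5 held GC boxes and no receptor hexamer in this window, while Dkk2 held TGTTCT, the hexamer on the other strand, near the far end. A RefSeq promoter was matched for 10490 of the 13304 genes tested, 152 of the 190 that rose and 31 of the 40 that fell. The hexamer was present in 15.1% of promoters of genes that rose, 12.9% of those that fell and 12.8% of all. A GC box was present in 60.5%, 45.2% and 64.4%. The relaxed receptor palindrome GNACANNNTGTNC occurred in 2 of the 152 (Car14 and Fam107a, named after the search), in 0 of the 31 and in 35 of all 10490. A match is a description of letters and not a binding site, and the window leaves out distant enhancers.

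The exact pair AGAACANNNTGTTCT, which the relaxed palindrome includes, occurred before the start of only 1 of the 10490 genes, Sgk1, a serum- and steroid-induced kinase. It is shown for that reason, from the start among several of this gene whose window is at chr10:21993640-21993889 (plus strand).
Sgk1: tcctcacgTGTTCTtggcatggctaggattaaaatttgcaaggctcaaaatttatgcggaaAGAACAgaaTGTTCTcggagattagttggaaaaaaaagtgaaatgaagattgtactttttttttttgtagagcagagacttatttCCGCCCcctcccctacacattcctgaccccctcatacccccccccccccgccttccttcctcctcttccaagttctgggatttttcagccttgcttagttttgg
The gene was singled out after the search. Sgk1 stood at 32.1, 36.0, 33.4 and 27.8 TPM with testosterone and 25.0, 18.98, 22.1 and 18.2 TPM without. The arms did not overlap, but the as-deposited fit did not call it (log2 fold change 0.60 ± 0.13, adjusted p = 0.0502), whereas the trend-removed fit did (0.47 ± 0.082, adjusted p = 0.0170).

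Genes of the androgen response rose in small number. Of 80 list members tested (genes known from human prostate cells), 4 rose and 0 fell as deposited, beside 1.43% and 0.301% of all genes. The 4 were Fkbp5, Hpgd, Abcc4 and Maf (the last not called with the trend removed, adjusted p = 0.0969), and the list median of 0.24 compares with 0.17 over all genes. With the trend removed, 5 rose and 1 fell, beside 1.73% and 1.14% of all genes, and the median was 0.023. Hpgd, which breaks down prostaglandins, rose from 7.49 ± 0.951 to 16.6 ± 2.16 TPM, and Abcc4, an organic anion pump, rose from 7.36 ± 1.21 to 15.4 ± 2.97 TPM. The call of Abcc4 ended without testosterone library B, C or G or hormone-free library C, D or H. That of Maf ended without testosterone library B or hormone-free library C. Pbsn, the probasin gene of differentiated prostate, was listed at 0 in 7 libraries and at 0.16 TPM in hormone-free D, too low to test.

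Steroid enzymes moved in both directions, and no steroid receptor gene tested was called as deposited. Of 17 genes tested, Srd5a2 and Sult1e1 rose and Akr1c14 fell, beside 1.43% and 0.301% of all genes. Sult1e1, the sulfotransferase that inactivates oestrogens, stood at 3.86, 5.80, 15.2 and 11.9 TPM against 0, 0, 0.1 and 0.27 TPM, with hormone-free A and C listed at 0. All 4 testosterone values were above 3.8 TPM and the log2 fold change was 3.07 ± 0.35, or 3.15 ± 0.36 with the trend removed. Every hormone-free value of Sult1e1 was under 1 TPM. The gene thus passed the filter only through the testosterone arm, and its arms could not overlap. Akr1c14, a hydroxysteroid dehydrogenase that breaks down dihydrotestosterone, stood at 2.59, 2.88, 3.22 and 2.16 TPM against 9.46, 6.01, 6.11 and 8.16 TPM. Its fall of 1.17 on the log2 scale had adjusted p = 0.0108. Srd5a1, the other 5-alpha reductase, was not called (-0.17 ± 0.13, adjusted p = 0.348; 95% interval -0.45 to 0.11).

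Pgr, the progesterone receptor gene, stood at 4.26, 2.11, 4.39 and 2.24 TPM against 9.08, 5.43, 4.93 and 4.22 TPM, and its fall was called only with the trend removed (-1.19 ± 0.16, adjusted p = 0.00435). Esr1, the oestrogen receptor alpha gene, was called by neither fit (-0.21 ± 0.35, adjusted p = 0.666).

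Among FGF signals, Fgf10, the mesenchymal ligand that prostate buds need, stood at 35.1, 28.7, 46.1 and 29.4 TPM with testosterone and 12.8, 11.1, 12.5 and 10.5 TPM without. The lowest testosterone value was well above the highest hormone-free one, and the log2 fold change was 1.47 ± 0.16 (adjusted p = 0.00175), or 1.18 ± 0.10 with the trend removed. Its call, like that of Wif1, ended in the fit with both the trend removed and a replicate block. Fgf10 was the only one of 9 ligands and inhibitors called, and none of 8 receptors was, including its receptor Fgfr2 (0.46 ± 0.13, adjusted p = 0.107). The shares called over all genes were 1.43% higher and 0.301% lower. Of 13 targets, Etv4, an ETS factor induced by FGF signalling, rose from 13.3 ± 1.28 to 22.8 ± 3.15 TPM. The call of Etv4 ended without testosterone library B, C or G or hormone-free library C, D or H.

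Wnt genes were called among ligands and among receptors and modulators. Of 33 receptors and modulators tested, 3 rose and 1 fell, and of 11 ligands 2 rose and 0 fell, beside 1.43% and 0.301% of all genes. Wif1, a secreted Wnt inhibitor known from UGS mesenchyme, stood at 12.9, 14.6, 16.4 and 12.7 TPM against 4.45, 5.07, 5.22 and 4.05 TPM. The arms were well apart, with a log2 fold change of 1.41 ± 0.14 (adjusted p = 9.59e-04), or 1.32 ± 0.11 with the trend removed. Sfrp2, a secreted frizzled-related protein, stood at 552, 573, 428 and 481 TPM against 288, 264, 297 and 323 TPM, and the R-spondin Rspo3, a potentiator of Wnt receptors, at 103, 104, 88.6 and 88.4 TPM against 47.5, 47.4, 68.4 and 48.0 TPM. In Rspo3 hormone-free D was well above the other hormone-free libraries and still below all testosterone ones. The call of Sfrp2 ended with median-of-ratios scaling. Dkk2 was the fall.

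The ligand Wnt16 rose from 2.71 ± 1.16 to 10.5 ± 3.78 TPM and Wnt11 from 11.2 ± 0.272 to 16.51 ± 1.25 TPM. Both calls ended when any 1 of 7 libraries was left out, namely testosterone library B, C or G or hormone-free library A, C, D or H. Wnt5a, a non-canonical ligand of the mesenchyme, overlapped as deposited (-0.17 ± 0.19, adjusted p = 0.547) and fell with the trend removed (-0.55 ± 0.11, adjusted p = 0.0249), as did Wnt5b (-0.66 ± 0.11). Of 15 targets only Wif1 was called. The target Axin2 (0.58 ± 0.17, adjusted p = 0.115) and the nuclear factor Lef1 (0.56 ± 0.23, adjusted p = 0.140) were not.

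None of 16 Hedgehog genes was called in either fit, beside 1.73% of all genes as deposited and 2.87% with the trend removed. At such shares a list of 16 would hold few calls or none. Shh, the epithelial ligand, stood at 43.7, 43.6, 31.8 and 23.3 TPM against 28.9, 23.1, 25.8 and 18.9 TPM, with overlap. Ptch1, receptor and target, stood at 80.04, 44.6, 69.7 and 15.3 TPM against 24.5, 10.6, 16.9 and 5.90 TPM; its transcript is 7725 nt long and testosterone B and G were high and both H libraries low. Its log2 fold change of 1.72 ± 0.53 had adjusted p = 0.126, or 1.19 ± 0.36 with the trend removed, and that of the target Gli1 was 0.27 ± 0.17, or -0.019 ± 0.16.

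Of 38 BMP and activin genes, Chrdl2 fell and none rose as deposited, beside 0.301% and 1.43% of all genes. Chrdl2, a secreted antagonist related to chordin, stood at 1.94, 1.97, 1.30 and 1.11 TPM against 10.4, 12.2, 7.40 and 9.91 TPM. Every testosterone value was under 2 TPM and every hormone-free value over 7 TPM, with a log2 fold change of -2.09 ± 0.19 (adjusted p = 6.31e-04) and a call in all 21 alternatives. With the trend removed, Gdf10 and Id4 also fell (-0.65 ± 0.14 and -0.49 ± 0.10) and the target Id2 rose (0.43 ± 0.068). The shares over all genes in that fit were 1.73% higher and 1.14% lower. The ligands Bmp4 (-0.22 ± 0.12, adjusted p = 0.205) and Bmp7 (0.56 ± 0.14, adjusted p = 0.0860) and the antagonist Nog (0.043 ± 0.15, adjusted p = 0.852) were not called. Of 22 Notch genes only Dner, a membrane protein with EGF repeats that can act as a Notch ligand, rose, from 3.65 ± 0.381 to 17.3 ± 2.04 TPM (log2 fold change 1.97 ± 0.13), and the receptor Notch1 was not called (0.46 ± 0.25, adjusted p = 0.220).

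Of 21 retinoic acid genes tested, the enzyme Aldh1a1 and the retinoid-induced transglutaminase Tgm2 rose and the binding protein Crabp1 fell, beside 1.43% and 0.301% of all genes. The rise of Tgm2 was not called with the trend removed (adjusted p = 0.0694) or without testosterone library B, C or G or hormone-free library A, C, D or H.

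Of 23 genes of the insulin-like growth factor system, 2 rose and 2 fell, beside 1.43% and 0.301% of all genes. Igfbp2, an abundant binding protein, stood at 803, 854, 746 and 1067 TPM against 381, 479.8, 438 and 487 TPM. The arms did not overlap and the log2 fold change was 0.95 ± 0.12, or 1.02 ± 0.10 with the trend removed; the call ended with median-of-ratios scaling. Igfbp4, a binding protein that holds IGF back, stood at 464, 495, 466 and 534 TPM against 684, 668, 695 and 696 TPM, a smaller difference of -0.49 ± 0.068 with little spread in the hormone-free arm. Htra1, a secreted protease that cuts binding proteins, fell from 42.9 ± 6.89 to 24.9 ± 0.973 TPM, and Stc2, a stanniocalcin that restrains IGF release, rose from 25.7 ± 3.90 to 42.6 ± 4.01 TPM. The ligand Igf1 stood at 199.7, 146, 246 and 139 TPM against 118, 104, 125 and 103 TPM, without overlap and without a call in either fit (0.66 ± 0.17, adjusted p = 0.0949). The call of Htra1 ended without hormone-free library C, and that of Stc2 without testosterone library B, C or G or hormone-free library C or D.

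Of 41 transcription factors of the bud and its epithelium, 1 rose and 0 fell, beside 1.43% and 0.301% of all genes. The count is near that share. The gene that rose was the LIM-only gene Lmo4 (log2 fold change 0.56 ± 0.094). The call of Lmo4 ended without testosterone library B or C or hormone-free library A, C or H. The bud factor Sox9 stood at 19.6, 17.8, 19.1 and 11.96 TPM against 12.6, 9.18, 8.03 and 9.38 TPM, with testosterone H below hormone-free A (0.74 ± 0.18, adjusted p = 0.0876). Foxa1, a pioneer factor of endodermal epithelium, gave 0.15 ± 0.16. None of 14 posterior Hox genes was called: Hoxd13 gave 0.11 ± 0.11, Hoxa13 0.47 ± 0.27 and Hoxb13 0.14 ± 0.43, the last with testosterone library C far above the rest.

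Matrix genes changed in both directions. Of 69 collagens and other matrix genes, 8 rose and 2 fell, beside 1.43% and 0.301% of all genes, and the list median was 0.39. With the trend removed 8 rose and 6 fell, beside 1.73% and 1.14% of all genes, and the median was -0.029. Col4a5 and Col4a6, basement membrane collagen chains encoded head to head on the X chromosome, stood at 156, 115, 162 and 90.8 TPM against 46.0, 32.5, 37.5 and 34.1 TPM and at 73.0, 52.9, 76.1 and 41.5 TPM against 20.4, 14.3, 14.1 and 14.1 TPM. Both were highest in testosterone G and B and lowest in H within that arm, and both were highest in A without hormone. Long transcripts in general had that order. In the bin with a median length of 6727 nt the median deviation was 0.56, 0.52 and -0.23 in testosterone G, B and H. It was 0.016 in hormone-free A, the highest of that arm. Their log2 fold changes were 1.75 ± 0.19 and 1.86 ± 0.20, or 1.29 ± 0.064 and 1.39 ± 0.084 with the trend removed, and both calls held in all 21 alternatives.

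The RefSeq starts of Col4a6 (minus strand) and Col4a5 (plus strand) lie 1343 bases apart in GRCm38.p6. Both upstream windows are shown because the genes share this stretch and both rose. The part of the stretch in the rises was not tested. The Col4a5 window is at chrX:141475169-141475418 and the Col4a6 window at chrX:141474077-141474326; capitals mark GC boxes.
Col4a5: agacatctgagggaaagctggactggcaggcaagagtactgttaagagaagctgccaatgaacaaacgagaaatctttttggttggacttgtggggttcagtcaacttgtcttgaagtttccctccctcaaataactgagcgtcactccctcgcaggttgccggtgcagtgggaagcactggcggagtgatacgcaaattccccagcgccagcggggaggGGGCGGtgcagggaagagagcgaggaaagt
Col4a6: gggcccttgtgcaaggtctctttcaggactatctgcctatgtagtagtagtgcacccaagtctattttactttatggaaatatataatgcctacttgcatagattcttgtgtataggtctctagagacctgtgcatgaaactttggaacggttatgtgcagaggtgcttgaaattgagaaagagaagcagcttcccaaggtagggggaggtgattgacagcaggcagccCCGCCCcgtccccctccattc
Each window held 1 GC box near the start and neither held the receptor hexamer.

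Col12a1, a fibril-associated collagen, stood at 199.6, 103, 282 and 93.3 TPM against 58.1, 45.0, 37.8 and 33.9 TPM, with a wide spread along the length trend; its log2 fold change moved from 1.81 ± 0.33 to 1.19 ± 0.17 with the trend removed, and its call ended without testosterone library B or hormone-free library C, D or H. Efemp1, a fibulin, rose from 59.1 ± 11.9 to 163 ± 27.0 TPM (1.45 ± 0.16). Eln, the elastin gene, fell from 301 ± 50.6 to 200.5 ± 12.7 TPM (-0.57 ± 0.11, adjusted p = 0.0425). With the trend removed the elastic fibre genes Fbln5 (-0.85 ± 0.14) and Loxl1 (-0.77 ± 0.16) fell as well, while Fbn2 (0.38 ± 0.063) and Lox (0.65 ± 0.14) rose. Eln, Fbln5, Loxl1, Fbn2 and Lox are named from the list after their values were seen. Col1a1, the main fibrillar collagen, was called by neither fit (0.33 ± 0.17 and -0.10 ± 0.10).

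Of 33 proteases and inhibitors tested, 4 rose and 2 fell, beside 1.43% and 0.301% of all genes. Mmp3, the stromelysin that degrades matrix, stood at 0.96, 0.64, 0.71 and 1.15 TPM against 8.75, 6.04, 5.04 and 3.34 TPM. All testosterone values were at or under 1.15 TPM, with a log2 fold change of -1.81 ± 0.24. Adamts16, a secreted metalloprotease, rose from 3.47 ± 0.701 to 10.7 ± 1.57 TPM and the heparanase gene Hpse from 4.08 ± 0.716 to 7.60 ± 0.724 TPM, the latter with a call that ended without testosterone library B, C or G or hormone-free library C, D or H. In the list of fat and cartilage genes, Lect1 (chondromodulin) stood at 6.18, 7.27, 6.27 and 7.22 TPM against 0.65, 0.4, 0.34 and 0.56 TPM (2.38 ± 0.15); Hapln1, a hyaluronan link protein, rose from 3.71 ± 0.825 to 9.21 ± 2.45 TPM but was not called with the trend removed (adjusted p = 0.0830) or without testosterone library B, C or G or hormone-free library A, C, D or H. Lect1 and Hapln1 were the only called members of 7 tested. Lect1 was under 1 TPM in every hormone-free library. It thus passed the filter only through the testosterone arm, and its arms could not overlap.

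**Figure D5:**
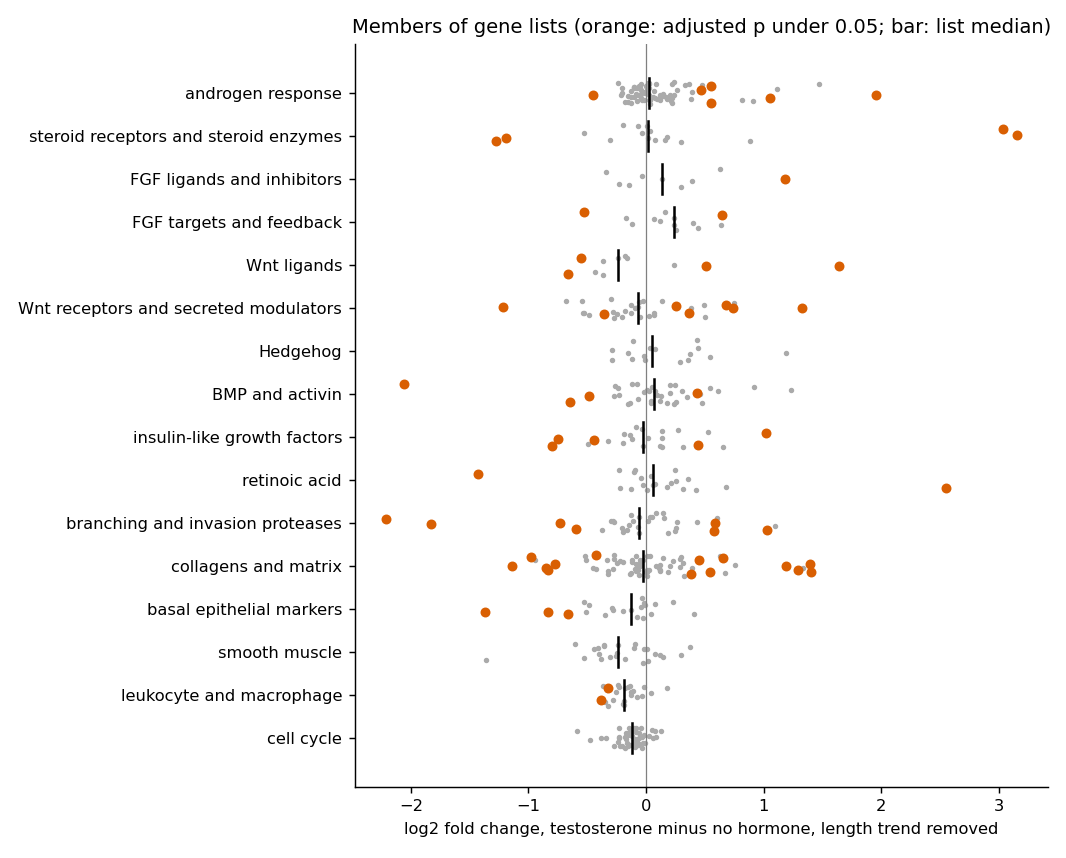
Log2 fold change, testosterone minus hormone-free UGS with the length trend removed, of each tested member of 16 gene lists; orange points have adjusted p under 0.05 and the bar is the list median. Most medians lie near 0. Called members stand on both sides within many lists, namely androgen response, steroid, FGF target, Wnt, BMP, insulin-like growth factor, retinoic acid, protease and matrix.

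Called genes were found in the basal, luminal, stromal and leukocyte marker lists. None was called as deposited in the smooth muscle, urothelium, keratinising epithelium, endothelium, skeletal muscle or Schwann cell and neuron lists. Of all genes tested, 1.43% rose and 0.301% fell. At such shares a list of this size would hold few calls or none, so 1 call or none does not set lists apart. In bulk tissue fewer cells of a type and less RNA per cell cannot be told apart. Of 21 basal epithelial markers, Krt14 and Dsc3 fell and none rose. Krt14, a basal keratin, stood at 79.4, 92.5, 67.8 and 78.5 TPM against 199, 137, 139 and 108 TPM, with hormone-free A the highest; its call ended without testosterone library B, C or G or hormone-free library C or D. Krt5 (-0.46 ± 0.18, adjusted p = 0.133) and the basal factor Trp63 (0.23 ± 0.21, adjusted p = 0.454) were not called. The luminal list held 19 tested genes, of which Prom1, a membrane glycoprotein of epithelial apices, rose from 67.2 ± 4.05 to 121 ± 21.6 TPM, while Krt8 was not called (-0.10 ± 0.15).

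In the stromal list of 26, Srd5a2, the heparin-binding growth factor Ptn and the dipeptidase Dpep1 rose and the matrix genes Dpt and Lum fell. The shares over all genes were 1.43% higher and 0.301% lower. The call of Dpep1 ended without hormone-free library C. Ptn stood at 452, 434, 484 and 435 TPM against 289, 197, 215 and 197 TPM, clearly apart. None of 25 smooth muscle genes was called; Acta2, smooth muscle actin, stood at 417, 477, 401 and 307 TPM against 536, 666, 387 and 815 TPM (-0.55 ± 0.22, adjusted p = 0.134). Of 24 leukocyte markers C1qb, a complement gene of macrophages, fell from 114 ± 3.54 to 84.2 ± 8.32 TPM, with a call that ended without testosterone library B, C or G or hormone-free library A, C, D or H, beside a list sum of 994 to 1215 TPM with testosterone and 1279 to 1440.0 TPM without. The part of macrophage content in other results was not tested.

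Lists of general cell state held no called gene as deposited: 55 cell cycle, 36 interferon, 23 endothelial, 79 ribosomal protein, 77 oxidative phosphorylation, 36 glycolysis and hypoxia, 38 folding and 37 lipid synthesis genes. Only 1.73% of all genes were called in either direction, so lists of this size would hold few calls or none at that share. The median log2 fold change was -0.277 in the ribosomal protein list, whose highest value was -0.06, and -0.24 in the oxidative phosphorylation list. The medians of the other lists named here were positive, and that of all genes was 0.17. With the trend removed the ribosomal and oxidative phosphorylation medians were -0.058 and -0.07. At an unadjusted p under 0.05, 3675 genes in all were higher and 602 lower. Mki67, a proliferation marker with a 10061 nt transcript, was 0.40 ± 0.19 as deposited and -0.23 ± 0.081 with the trend removed, a change of sign, and called in neither. The antioxidant list of 40 held 2 rises, Gpx3 (a secreted glutathione peroxidase, from 34.2 ± 4.67 to 59.9 ± 8.07 TPM) and Gsta3 (a glutathione transferase, from 4.65 ± 1.12 to 21.4 ± 3.51 TPM), beside 1.43% of all genes that rose. The call of Gpx3 ended without hormone-free library C.

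Levels in untreated adult tissue are given as a description, since age, culture and sex differ from UGS. Of the 190 genes that rose, 164 reached a mean of 1 TPM in AP, 174 in DLP and 175 in urethra (86.3%, 91.6% and 92.1%, against 91.6%, 95.3% and 95.6% of all genes tested). Of the 40 that fell, 10 stayed below 1 TPM in all 3 tissues (25%), against 2.6% of all genes tested and 8 of the 190 (4.2%). Every gene of the deposited values reached a mean of 4.998 TPM in some group. A gene below 1 TPM in all 3 untreated tissues is thus listed through UGS or treated tissue. The part of this selection in the shares was not tested. Aldh1a1 stood at 104, 199 and 162 TPM and Fkbp5 at 38.7, 146 and 87.9 TPM in AP, DLP and urethra. Among the falls, Crabp1 was listed at 0 in AP and stood at 7.15 and 1.10 TPM in DLP and urethra, and Adamts18, Dsc3, Vstm2b and Cntnap4 were below 0.5 TPM in all 3. Other falls reached higher levels there: Pnliprp1 stood at 1032, 49.5 and 2.65 TPM, Dpt at 51.3, 79.5 and 164 TPM and S100a4 at 42.1, 64.0 and 74.7 TPM in AP, DLP and urethra. Col24a1 and Adamts16 rose in UGS and were low in adult tissue, at 0.172, 0.385 and 2.42 TPM and 0.295, 0.310 and 0.150 TPM.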

How the data were processed

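RNA sequencing of 32 libraries was deposited by the authors as 1 table of TPM values for 13780 genes; every gene reached a mean of 4.998 TPM in some group. The tools named in the submitters' processing notes are FastQC, STAR, edgeR and RSEM, and the build is mm9; roles and versions are not given in the sources used here. TPM sums of the 8 UGS columns were 994133 to 996126, and 13166 to 13337 genes reached 1 TPM; the depth, and so a counting error, is unknown. No 2 columns were identical.

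The 4 against 4 fit used log2(TPM + 1), limma 3.58.1 (R 4.3.3) with its trend option, genes reaching 1 TPM in 4 or more of the 8 libraries, and Benjamini-Hochberg adjusted p under 0.05. Fold changes on this scale understate changes of low genes. The length trend was removed per library by a loess curve (span 0.5) of the deviation from the gene mean against log2 transcript length (GENCODE M21, matched for 13724 genes, 13594 by accession). Scripts were tested on simulated data. Lists (45, 1420 entries) are counted, with no set test; 2 genes not reported here are left out of them. The members, lists and named genes were chosen with earlier results of these data known. Named were, among called and non-overlapping genes, the 12 with the largest rise and the 12 with the largest fall that reached 10 TPM in the higher arm (predicted and RIKEN transcripts left out), up to 4 called members per list, 31 genes whatever their outcome and 5 sex-linked genes. Alternatives were other pseudocounts, filters, scalings, limma options, a replicate block and each library left out. Promoters are from RefSeq (GRCm38.p6), matched by symbol or accession. Figures were drawn with matplotlib 3.10.9.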

Additional observations from a re-analysis of the deposited data

Results flagged for a closer look

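Among 172 groups of 4 values for the named genes, 5 held a library far from the other 3 by Dixon's ratio of gap to range; chance gives about 1 in 20 such groups. Hoxb13 in testosterone library C was at 35.9 TPM, with the next library at 9.35 TPM and a ratio of 0.898. Rspo3 in hormone-free library D was at 68.4 TPM against 48.0 TPM (ratio 0.975). Col4a6 in hormone-free library A was at 20.4 TPM against 14.3 TPM (ratio 0.97). Lgals7 in testosterone library H was at 30.0 TPM against 25.1 TPM (ratio 0.893). Pbsn was at 0.16 TPM in hormone-free library D and listed at 0 in the others (ratio 1).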

How the results depend on the processing

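The total of 230 calls (190 higher, 40 lower) stayed within 1.5 times under both other pseudocounts, both filters, median-of-ratios and quantile scaling, limma without the trend and limma's robust setting. Falls rose to 93 with median-of-ratios scaling and 133 with quantile scaling. With the length trend removed there were 380 calls (229 and 151). limma arrayWeights gave 7616 (6534 and 1082); the cause was not tested. Leaving out each library gave 96 to 4558 calls (80 to 4107 higher, 16 to 451 lower), and 203 to 762 with the trend removed (138 to 421 higher, 57 to 341 lower). The highest counts came without testosterone library H and the lowest total without hormone-free library C. Without testosterone B and G and hormone-free H, an alternative chosen after seeing the data, 59 were called (47 and 12), or 83 (59 and 24) with the trend removed.

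Both arms share only the letters C and H, and the labels do not say that they pair cultures; deviations of the 2 libraries correlated at 0.0624 for C and 0.627 for H (0.478 with the trend removed), against -0.549 to 0.467 in pairs with different letters. A replicate block gave 2978 calls (2669 and 309), and with the trend removed 61 (51 and 10). Scaling by median-of-ratios ended the calls of Wnt11, Sfrp2, Tgm2, Igfbp2, Lmo4, Hpse and Gpx3, quantile scaling those of Etv4, Wnt11, Tgm2, Hpse, Gpx3, Dpep1 and Hapln1, and limma without the trend those of Epha3, S100a4, Dsc3, Tgm2, Krt14 and C1qb. Dropping the filter on low values ended those of S100a4, Dsc3, Cntnap4 and Krt14. The block with the trend removed ended the calls of 34 named genes, among them Fgf10, Wif1, Rspo3, Hpgd, Akr1c14, Igfbp2, Igfbp4, Mmp3, Adamts16, BC100530 and Pnliprp1. Leaving out testosterone B and G and hormone-free H ended 29, among them Ptn, Rspo3, Akr1c14, Igfbp4 and Vstm2b. No called value of a named gene changed sign. No comparison with counts was possible from TPM.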

Other observations

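Some called genes outside the lists, chosen after their values were seen, belong to known steroid-induced sets. Zbtb16, a zinc finger factor induced by androgen and glucocorticoid in other tissues, stood at 11.7, 5.93, 10.4 and 2.88 TPM with testosterone and 0.21, 0.13, 0.39 and 0.06 TPM without (log2 fold change 2.73 ± 0.35, limma adjusted p = 0.00472). With every hormone-free value under 1 TPM, Zbtb16 passed the filter only through the testosterone arm, and its arms could not overlap. The Krüppel-like factors Klf9 and Klf15 rose by 2.16 and 1.92 on the log2 scale, the clock gene Per1 by 0.85 and the leucine zipper gene Tsc22d3 by 0.64. All 5 were called with the length trend removed as well, at 2.36, 1.83, 1.82, 0.51 and 0.64, in a second fit of the same libraries. How many genes of such sets were tested and not called was not counted. Sgk1, for example, was not called as deposited.

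Both subunits of the receptor for calcitonin gene-related peptide were among the rises. Calcrl, the G protein-coupled subunit, stood at 61.8, 54.5, 58.4 and 37.6 TPM against 20.4, 13.0, 19.5 and 15.0 TPM, and Ramp1, its accessory protein, at 8.27, 11.1, 13.0 and 15.5 TPM against 3.12, 3.34, 1.27 and 3.66 TPM. Neither overlapped between arms (log2 fold changes 1.58 ± 0.19 and 1.77 ± 0.26; limma adjusted p = 0.00296 and 0.00971). Within the testosterone arm library H was the lowest for Calcrl and the highest for Ramp1. Penk, the enkephalin precursor gene, stood at 287, 309.9, 291 and 373 TPM against 100.03, 100.5, 142 and 107 TPM (1.49 ± 0.13). Crisp1, a secreted protein known from the epididymis, stood at 2.56, 6.31, 9.99 and 9.54 TPM against 0.22, 0.4, 0.52 and 0.19 TPM, with testosterone B the lowest of its arm. With every hormone-free value under 1 TPM, Crisp1 passed the filter only through the testosterone arm, and its arms could not overlap.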
